A study of Mus musculus with 10 samples.

Results

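The nuclear-encoded genes of the mitochondrial respiratory chain were followed across 4 Pax5 genotypes of mouse B cell progenitors. The members were all genes whose symbol starts with Nduf, Uqcr, Cox4, Cox5, Cox6, Cox7, Cox8 or Atp5, together with Sdha, Sdhb, Sdhc and Sdhd, that reached a level of at least 1 TPM in a library, where TPM is a read count scaled for gene length and for the total of the library. Of 94 matching symbols, 88 reached this level, out of 13436 genes that did so among the 25579 listed. Of the 6 symbols that did not, Cox4i2 reached 0.912 TPM. Cox7b2, Cox8b, Cox8c, Ndufa4l2 and Ndufs5 stayed at or under 0.435 TPM in each library. Reads with more than 1 mapping position were not counted, so a level under this minimum does not show that a gene is silent.

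Electrons from NADH enter the respiratory chain at complex I and those from succinate at complex II, and they pass through ubiquinone, complex III and cytochrome c to complex IV, where oxygen is reduced. Complexes I, III and IV pump protons across the inner mitochondrial membrane, and the ATP synthase uses the returning protons to make ATP. Several subunits of complex IV exist as isoforms, some of which are known from heart and skeletal muscle and others from most tissues.

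RNA-seq was carried out on cells sorted ex vivo from the bone marrow of C57BL/6 mice, with 2 libraries for each of 4 genotypes. Pax5+/+ pro-B cells carried both normal alleles of the transcription factor Pax5, Pax5+/- pro-B cells carried 1 normal and 1 null allele, and Pax5R31Q/- pro-B cells carried 1 allele with the R31Q substitution in the DNA-binding paired domain beside the null allele. Pax5-/- cells came from Vav-Cre Pax5fl/fl mice, in which Cre is active throughout the hematopoietic system. The labels call them progenitors rather than pro-B cells, whereas the study describes them as sorted pro-B cells. Pax5 binding was mapped by ChIP-seq in 1 library of short-term cultured Pax5+/+ Rag2-/- pro-B cells and 1 library of cultured Pax5R31Q/- pro-B cells. The ages of the mice, and whether the libraries of a genotype came from separate animals, are not given in the sources used here, so the p-values measure the spread between these libraries.

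The libraries held between 21625407 and 34488454 counted reads. Pax5 itself was measured at 418 and 444 TPM in Pax5+/+, 272 and 287 in Pax5+/-, 306 and 293 in Pax5R31Q/- and 1242 and 1409 in Pax5-/- cells, and these gene totals do not show whether the deleted exon is covered. Replicate 1 of Pax5-/- stood apart as the shallowest library and as the highest in summed myeloid marker level, with 3024 TPM against 448 TPM in replicate 2.

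The respiratory chain was an abundant transcript class in all 4 genotypes. Its members together made up 2.56% to 3.02% of all TPM, with 29826 and 27243 TPM in Pax5+/+, 27806 and 28498 in Pax5+/-, 27470 and 30179 in Pax5R31Q/- and 26277 and 25596 in Pax5-/- libraries. The median member had a mean level of 227 TPM, compared with 22.4 TPM for the median gene tested. Of the 88 members, 71 lay over 100 TPM and 31 were among the 500 most abundant genes tested. The most abundant was Atp5b, the catalytic beta subunit of the ATP synthase, at 1457 TPM, and the least abundant was Atp5s, a coupling factor related to the ATP synthase, at 6.97 TPM.

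**Figure D1:**
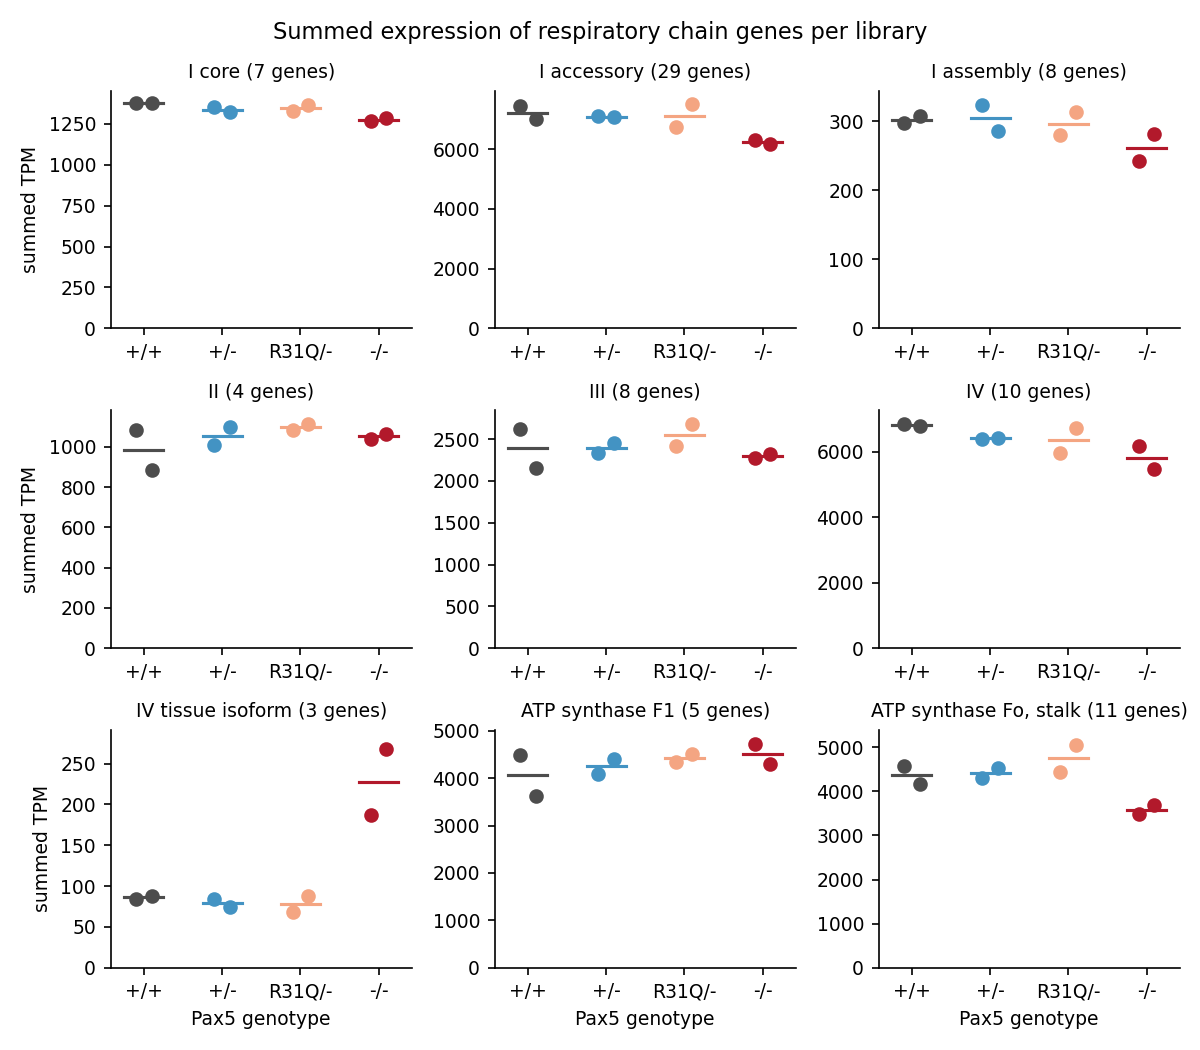
Summed level in TPM (vertical axes, from 0) of the members of each complex, with a point for each of the 8 RNA-seq libraries and a line for the mean of each Pax5 genotype. The Pax5-/- points lie below those of the other genotypes for the complex I accessory subunits, at 6296 and 6156 TPM, and not for the F1 part of the ATP synthase, at 4722 and 4302 TPM.

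The first question was whether a single Pax5 allele, normal or mutant, alters the respiratory chain in pro-B cells. Between Pax5+/- and Pax5+/+ cells, 0 of 88 members passed an adjusted p of 0.05 in limma in either direction, and 1 was lower at an unadjusted p under 0.05. Of all genes tested, 0.0223% were lower and 0% higher in this comparison. The median log2 fold change was -0.03 for the members and 0.02 for all genes tested.

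Between Pax5R31Q/- and Pax5+/+ cells, 1 of 88 members was lower and 0 were higher, with 2 lower and 2 higher at an unadjusted p under 0.05. The gene was Cox6a2. In the same comparison 2.55% of all genes tested were lower and 1.62% higher. These shares were 0.508% and 0.231% without replicate 1 and 0.448% and 0.254% without replicate 2 of Pax5R31Q/-, 0.883% and 0.479% without replicate 2 of Pax5+/+, and 3.46% and 3.03% or 3.60% and 3.10% without replicate 1 or 2 of Pax5-/-. Both shares also fell without either Pax5+/- library. The median log2 fold change of the members was 0.02, beside 0.04 for all genes, and the quartiles of the members lay at -0.13 and 0.19. By the stricter rule of the study, which adds a change of more than 3-fold and a mean over 5 TPM, Cox6a2 was again the member called lower and 0 were higher, against 0.558% and 0.298% of all genes. Between Pax5R31Q/- and Pax5+/- cells 0 of 88 members passed in either direction, and 1 was lower at an unadjusted p under 0.05. Of all genes 0.35% were lower and 0.268% higher. These shares were 1.83% and 1.33% with these genotypes alone in the fit. In the fit over all genotypes they fell when any 1 library of these genotypes was left out.

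In Pax5-/- cells 16 of the 88 members were lower than in Pax5+/+ cells, which is 18.2%, and 1 was higher. In the same comparison 19.7% of all genes were lower and 16.2% higher. The Pax5-/- cells also differed in their marker genes, with 8 of 12 B lineage markers lower and 1, Dntt, higher, and the 12 summed at 8599 and 7918 TPM, compared with 14822 to 18799 TPM in the other libraries. Of 6 erythroid markers tested 4 were lower, with sums of 1166 and 235 TPM compared with 1540 to 2987 TPM. The study describes the Pax5-/- cells as sorted pro-B cells, whereas the labels call them progenitors. The genotype and the cell population therefore cannot be told apart. Against Pax5R31Q/- cells, 18 members, or 20.5%, were lower in Pax5-/- cells and 1 was higher, beside 19.9% and 14.7% of all genes. By the stricter rule 0 members were lower and 1 was higher in Pax5-/- than in Pax5+/+ cells, where 3.82% of all genes were lower and 3.07% higher. The single higher member in both comparisons was Cox6a2.

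Large changes were few among the members in Pax5-/- cells. Of the 88 members 2, or 2.27%, differed from Pax5+/+ by more than 1 on the log2 scale, compared with 17.4% of all genes tested, and 10 members, or 11.4%, differed by more than 0.5, compared with 42.0%. This difference in spread was not tested, and the members were more abundant than most genes. Their median log2 fold change was -0.15, beside -0.11 for all genes, and 59 of 88 members, or 67.0%, lay below 0, as did 57.4% of all genes. With median-ratio scaling these medians were -0.058 and -0.026, with quantile normalization -0.037 and -0.013, with limma-voom -0.061 and -0.024, and without replicate 1 or 2 of Pax5-/- they were -0.13 and 0.011 or -0.21 and -0.22. Without replicate 2 of Pax5-/- the share of all genes called lower rose, and without any other library it fell. The members' share lay below it in each of these fits. The number of lower members depended on the libraries and the scaling. It was 7 and 8 without replicate 1 or 2 of Pax5+/+, 10 without either Pax5+/- library, 10 without replicate 1 and 22 without replicate 2 of Pax5-/-. The members' share then lay further below that of all genes, at 7.95% beside 15.6% and 9.09% beside 14.1% without replicate 1 or 2 of Pax5+/+, and at 1.14% beside 10.8% with these genotypes alone in the fit. With median-ratio scaling 8 members, or 9.09%, were lower and 2 higher, beside 18.6% of all genes lower. The all-gene split then moved from 2647 lower and 2182 higher to 2502 lower and 2631 higher. Against Pax5R31Q/- cells the share of all genes lower also rose without replicate 2 of Pax5-/- and fell without any other library. The members' share lay below it in each of these fits. With median-ratio scaling the members' share there was 7.95% beside 18.4%. For Pax5-/- against Pax5R31Q/- the 18 lower members became 6 without either Pax5+/- library, 2 and 0 without replicate 1 or 2 of Pax5R31Q/-, 2 without replicate 1 and 27 without replicate 2 of Pax5-/-, and with median-ratio scaling 7 were lower and 2 higher.

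**Figure D2:**
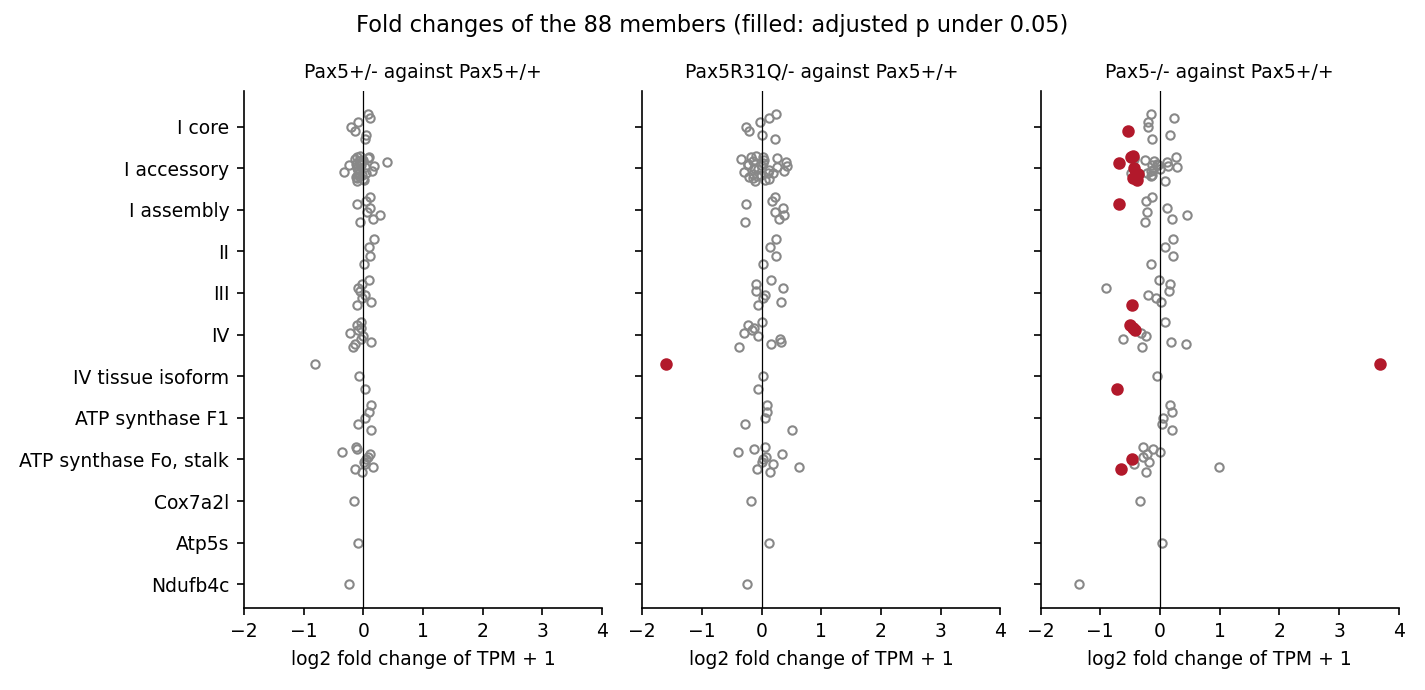
Log2 fold change of TPM + 1 for each of the 88 members against Pax5+/+ in Pax5+/-, Pax5R31Q/- and Pax5-/- cells (horizontal axes), with members grouped by complex (rows, spread vertically for legibility) and members past an adjusted p of 0.05 filled. Cox6a2 is the filled point at -1.60 in Pax5R31Q/- and at 3.68 in Pax5-/- cells, and the other called members lie between -0.72 and -0.36.

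Of the 88 members 44, among them Ndufa4, which is also counted as a complex IV subunit, were listed under complex I or its assembly. Its 7 nuclear-encoded core subunits summed to 1378 and 1374 TPM in Pax5+/+, 1349 and 1322 in Pax5+/-, 1325 and 1362 in Pax5R31Q/- and 1264 and 1286 in Pax5-/- libraries. Both Pax5-/- libraries thus lay below the 6 others, and 1 of the 7 core genes was lower than in Pax5+/+ cells, beside 19.7% of all genes. That gene was Ndufs8, which encodes an iron-sulfur subunit of the arm that receives electrons. Its level was 317 and 349 TPM in Pax5+/+, 315 and 288 in Pax5+/-, 279 and 295 in Pax5R31Q/- and 239 and 219 in Pax5-/- libraries. The Pax5-/- libraries did not overlap with any other genotype, with a log2 fold change of -0.54 (SE 0.11) from Pax5+/+ and a limma adjusted p of 0.0078.

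The 29 genes listed as accessory subunits of complex I included Ndufa4. They summed to 7455 and 6990 TPM in Pax5+/+, 7097 and 7074 in Pax5+/-, 6727 and 7513 in Pax5R31Q/- and 6296 and 6156 in Pax5-/-. The Pax5-/- sums were again below the other 6, and 7 of the 29 genes were lower than in Pax5+/+ cells and 0 higher, beside 19.7% and 16.2% of all genes. The largest of these changes was in Ndufa5, a subunit of the matrix arm, at 204 and 195 TPM in Pax5+/+, 180 and 205 in Pax5+/-, 185 and 221 in Pax5R31Q/- and 105 and 146 in Pax5-/- libraries. All 6 pro-B cell libraries lay above both Pax5-/- libraries, and the log2 fold change between Pax5-/- and Pax5+/+ was -0.68 (SE 0.17, limma adjusted p = 0.0184). This call was lost without replicate 1 of Pax5-/- and without either Pax5+/+ library, with a limma adjusted p of up to 0.0832 over all alternatives. The other 6 were Ndufa1, Ndufa11, Ndufb7, Ndufb10, Ndufc2 and Ndufs6, with log2 fold changes between -0.49 and -0.36. Ndufa1 kept its call under 15 of 16 alternative settings. Ndufb10 kept its call with any 1 of the 8 libraries left out, Ndufa11 lost its call without replicate 1 of Pax5+/+, and Ndufb7, Ndufc2 and Ndufs6 lost theirs in 5 to 7 of these 8 fits. Both scalings and the fit of these genotypes alone also ended the calls of these 5 genes, Ndufb10 with a limma adjusted p of up to 0.103. Ndufa3 was the most abundant accessory gene, at a mean of 650 TPM, and the acyl carrier protein gene Ndufab1 the least, at 18.4 TPM.

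Of the 8 assembly factors of complex I, which build it without remaining in it, 1 was lower in Pax5-/- than in Pax5+/+ cells. In this comparison 19.7% of all genes were lower. Ndufaf3, which acts early in the assembly of the complex, was at 61.1 and 61.3 TPM in Pax5+/+, 61.0 and 52.9 in Pax5+/-, 49.9 and 51.4 in Pax5R31Q/- and 38.0 and 37.3 in Pax5-/- libraries. Its levels in Pax5R31Q/- lay below both Pax5+/+ and both Pax5+/- libraries and above both Pax5-/- libraries. The change between Pax5-/- and Pax5+/+ was -0.69 (SE 0.11) on the log2 scale with a limma adjusted p of 0.0030, and that between Pax5R31Q/- and Pax5+/+ was -0.27 with a limma adjusted p of 0.26. The lower level in Pax5-/- cells was called under all 16 alternative settings, with limma adjusted p values between 0.00287 and 0.0346.

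Complex II, whose 4 subunits are also an enzyme of the citric acid cycle, showed 0 lower and 0 higher genes in each of the 5 comparisons. Its sum was 1084 and 884 TPM in Pax5+/+, 1009 and 1097 in Pax5+/-, 1085 and 1115 in Pax5R31Q/- and 1042 and 1064 in Pax5-/- libraries. The Pax5-/- values lay between the Pax5+/+ values. Sdha, the flavoprotein that oxidizes succinate, was at 286 and 202 TPM in Pax5+/+ and 254 and 304 in Pax5-/- libraries. Sdhb, its iron-sulfur partner, was at 352 and 290 TPM and at 351 and 330 TPM in the same groups. The membrane anchors Sdhc and Sdhd had log2 fold changes of 0.22 and -0.15 between Pax5-/- and Pax5+/+, with limma adjusted p values of 0.219 and 0.279.

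Complex III summed to 2619 and 2160 TPM in Pax5+/+ and to 2269 and 2326 TPM in Pax5-/- libraries, so the genotypes overlapped. Of its 8 members only Uqcrq, a small subunit, was lower in Pax5-/- than in Pax5+/+ cells, beside 19.7% of all genes. Uqcrq was at 146 and 152 TPM compared with 213 and 199 TPM (log2 fold change -0.46, SE 0.11, limma adjusted p = 0.0168). This call was lost without replicate 1 of Pax5+/+ or of Pax5-/-. Uqcrb, a small subunit near a ubiquinone site, was at 66.6 and 185 TPM in Pax5-/- and between 193 and 287 TPM in the other libraries, and it passed against Pax5R31Q/- (limma adjusted p = 0.0428), a call that held in 2 of 8 fits with 1 library left out, those without a Pax5-/- library. The most abundant gene of the complex was Uqcrh, the hinge protein, at a mean of 577 TPM, and it varied from 688 to 399 TPM within Pax5+/+.

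Complex IV transfers electrons to oxygen. Its 10 widely expressed members summed to 6862 and 6784 TPM in Pax5+/+, 6396 and 6434 in Pax5+/-, 5962 and 6744 in Pax5R31Q/- and 6176 and 5472 in Pax5-/- libraries. The highest Pax5-/- sum was above the lowest of Pax5R31Q/-, and 3 of the 10 genes were lower in Pax5-/- than in Pax5+/+ cells, where 19.7% of all genes were. Cox5a, a subunit on the matrix side, was at 423 and 514 TPM in Pax5+/+ and 315 and 346 TPM in Pax5-/- cells (log2 fold change -0.50, SE 0.13, limma adjusted p = 0.0182). Cox5b, which holds a zinc ion, was at 768 and 720 TPM and at 509 and 583 TPM (log2 fold change -0.45, SE 0.12, limma adjusted p = 0.0264). The call for Cox5a was lost without replicate 2 of Pax5+/+ or replicate 1 of Pax5-/-, and that for Cox5b also without replicate 1 of Pax5+/+ or either Pax5+/- library. Cox4i1, the regulatory isoform of most tissues, stayed between 924 and 1169 TPM in the 8 libraries, and its hypoxia-linked paralog Cox4i2 was below the level required for testing.

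**Figure D3:**
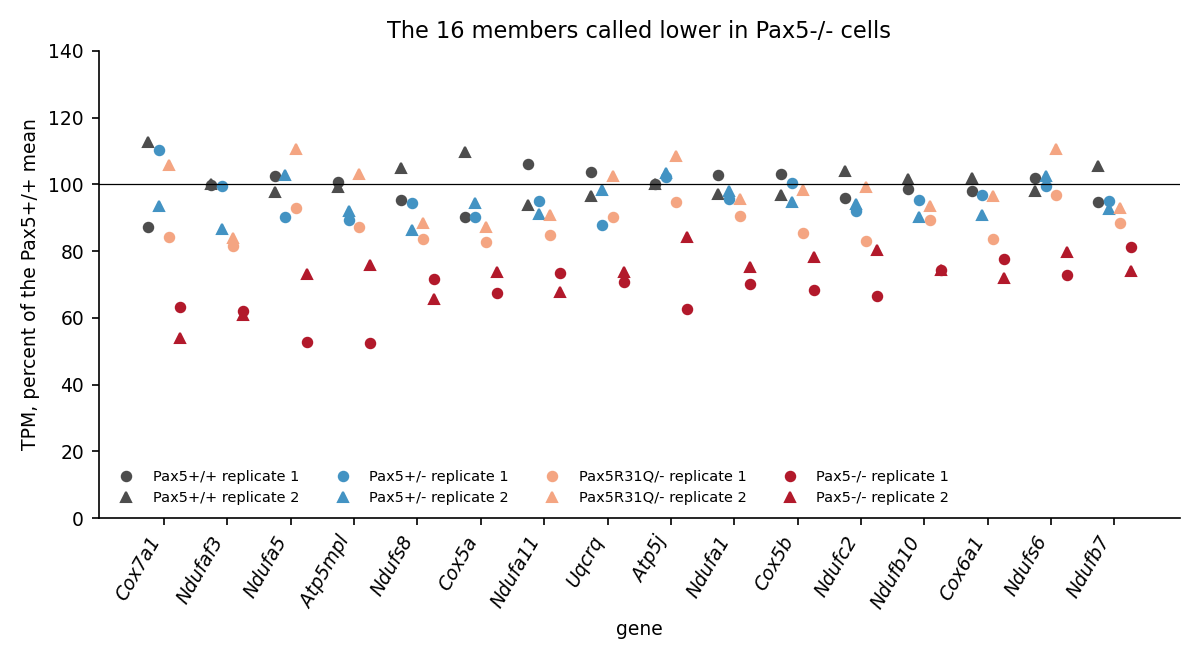
Level of the 16 members lower in Pax5-/- than in Pax5+/+ cells, as TPM in percent of the Pax5+/+ mean (vertical axis) for each gene, with a point for each of the 8 libraries coloured by genotype and shaped by replicate, and a line at the Pax5+/+ mean. For each gene both Pax5-/- points lie below the 6 others, as they do for 90.5% of all 2647 genes chosen by the same call.

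The isoforms of complex IV gave the largest change of the whole set. Cox6a2 encodes the heart and skeletal muscle isoform of subunit 6A, and Cox6a1 the isoform of other tissues. Cox6a2 was at 12.8 and 10.4 TPM in Pax5+/+, 7.04 and 5.37 in Pax5+/-, 2.94 and 3.34 in Pax5R31Q/- and 123 and 206 in Pax5-/- libraries. No genotype overlapped with another, with the lowest levels in Pax5R31Q/- and the highest in Pax5-/- cells. These levels rested on 27 and 30 reads in Pax5R31Q/-, 85 to 117 in Pax5+/+ and 815 and 1920 in Pax5-/- libraries.

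Compared with Pax5+/+, Cox6a2 was 14.2-fold higher by mean TPM in Pax5-/- cells (log2 fold change 3.68, SE 0.26, limma adjusted p = 5.5e-05), and this call held under all 16 alternative settings. In Pax5R31Q/- cells it was at 0.271 of the Pax5+/+ mean (log2 fold change -1.60, SE 0.26, limma adjusted p = 0.0162). The call in Pax5R31Q/- was lost when any 1 of the 4 libraries compared was left out, with limma adjusted p values of 0.0657 and 0.0895 without replicate 1 or 2 of Pax5+/+ and of 0.141 and 0.122 without replicate 1 or 2 of Pax5R31Q/-. In Pax5+/- cells the log2 fold change was -0.81, and it did not pass, with a limma adjusted p of 0.569. Pax5-/- and Pax5R31Q/- cells differed by 5.28 on the log2 scale.

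Cox6a1 remained by far the main isoform. It was at 1339 and 1391 TPM in Pax5+/+, 1322 and 1240 in Pax5+/-, 1141 and 1317 in Pax5R31Q/- and 1059 and 980 in Pax5-/- libraries, and it was called lower in Pax5-/- than in Pax5+/+ cells (log2 fold change -0.42, SE 0.12, limma adjusted p = 0.0302). This call was lost in 11 of 16 alternative settings, and among the fits with 1 library left out it held without replicate 1 of Pax5-/- alone. The share of Cox6a2 in the sum of both isoforms was 0.944% and 0.741% in Pax5+/+, 0.53% and 0.432% in Pax5+/-, 0.257% and 0.253% in Pax5R31Q/- and 10.4% and 17.4% in Pax5-/- libraries.

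**Figure D4:**
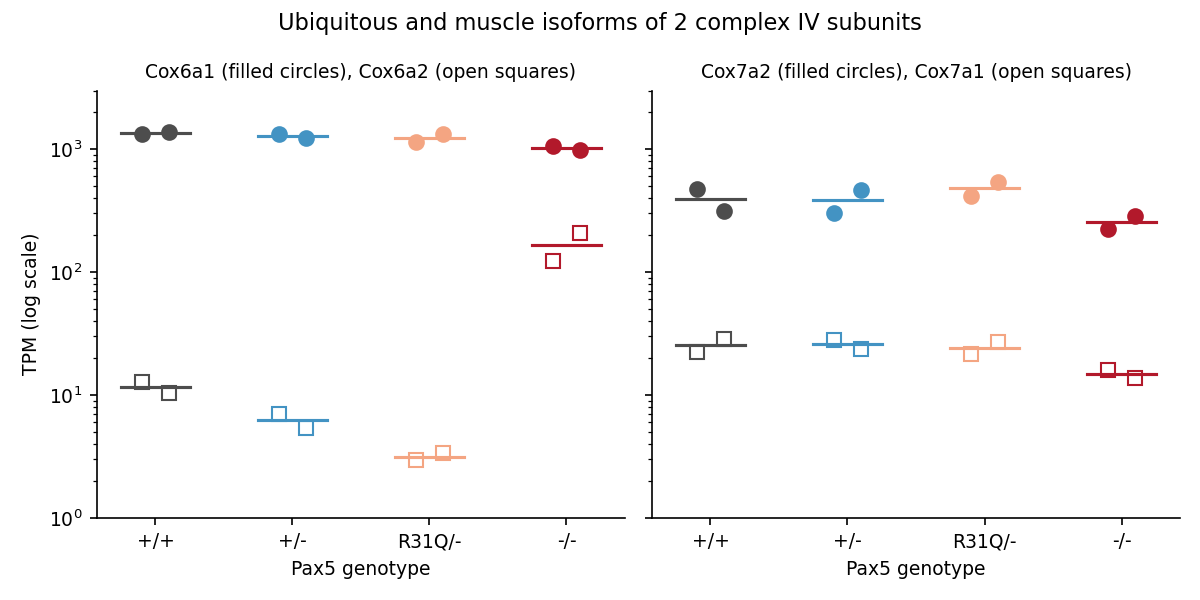
Levels in TPM on a log axis of the widely expressed isoforms (filled circles, Cox6a1 and Cox7a2) and the muscle isoforms (open squares, Cox6a2 and Cox7a1) in each of the 4 Pax5 genotypes, with a point for each library and a line for the mean of 2. Cox6a2 separates the genotypes, from 2.94 TPM in Pax5R31Q/- to 206 TPM in Pax5-/- libraries, whereas Cox7a1 stays between 13.7 and 28.6 TPM.

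The other isoforms did not follow Cox6a2. Cox7a1, known from heart and muscle, was at 22.2 and 28.6 TPM in Pax5+/+, 28.0 and 23.8 in Pax5+/-, 21.4 and 26.9 in Pax5R31Q/- and 16.1 and 13.7 in Pax5-/- libraries, and was lower in Pax5-/- than in Pax5+/+ cells (log2 fold change -0.72, SE 0.19, limma adjusted p = 0.0200). Without replicate 2 of Pax5+/+ or of Pax5-/- this call was lost, with a highest limma adjusted p of 0.106 over all alternatives. Cox7a2, the partner of Cox7a1 in most tissues, was lower in Pax5-/- than in Pax5R31Q/- cells (log2 fold change -0.91, limma adjusted p = 0.0363) but did not pass against Pax5+/+ (limma adjusted p = 0.119), and the first of these calls was lost without either Pax5R31Q/- library or replicate 1 of Pax5-/-. Cox6b2, known from testis, was at 49.7 and 49.1 TPM in Pax5+/+ and 48.3 and 47.5 TPM in Pax5-/- cells, beside its widely expressed partner Cox6b1 at 840 and 984 TPM and at 774 and 694 TPM. Cox7a2l, which takes part in joining complexes III and IV, was at 845 and 672 TPM in Pax5+/+ and 562 and 631 TPM in Pax5-/- libraries, and did not pass (limma adjusted p = 0.092). Cox7b, Cox8a and Ndufa4, which is also counted as a complex IV subunit, gave log2 fold changes of 0.19, -0.30 and 0.12 in Pax5-/- cells and did not pass.

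In bulk samples, a lower level from fewer cells of a type cannot be told apart from less RNA per cell. Markers of plasmacytoid dendritic cells, which share early steps with B cells, were mostly higher in Pax5-/- cells, as was Cox6a2. Of 13 markers of plasmacytoid dendritic cells, 9 were higher in Pax5-/- than in Pax5+/+ cells and 1 was lower, beside 16.2% and 19.7% of all genes, and their summed level was 3544 and 4608 TPM in Pax5-/- and 1445 to 1662 TPM in the other libraries. The median log2 fold change of the 13 markers from Pax5+/+ was -0.34 in Pax5+/-, with 9 below 0, -0.49 in Pax5R31Q/-, with 11 below 0, and 1.97 in Pax5-/- cells, with 4 below 0. Their most abundant gene, Plac8, went the other way among the pro-B cells, at 562 and 535 TPM in Pax5+/+, 624 and 842 in Pax5+/- and 959 and 1167 in Pax5R31Q/- libraries. Siglech, a lectin of these cells that was picked after its values were seen, was at 11.7 and 3.37 TPM in Pax5+/+, 1.72 and 2.64 in Pax5+/-, 0.694 and 1.33 in Pax5R31Q/- and 54.4 and 158 in Pax5-/- libraries. Its lowest and highest genotypes were those of Cox6a2, although its Pax5+/- and Pax5R31Q/- levels lay close together. Klk1 and Cd209d, also known from these cells, were not called, at 1.04 and 5.39 TPM and at 0.116 and 1.80 TPM in Pax5-/- libraries. In Pax5R31Q/- cells 2 of the 13 markers, Cd300c and Spib, were called lower and 1, Plac8, was called higher, beside 2.55% and 1.62% of all genes. Of the 8 muscle markers, 6 were under 1 TPM in every library. The other two are troponin genes, of which Tnni2 was higher in Pax5-/- than in Pax5+/+ cells by a log2 fold change of 1.75, and Tnnt2 was lower there at -1.15 and higher in Pax5R31Q/- cells at 0.87. The muscle markers summed to 24.7 and 35.0 TPM in Pax5+/+, 36.1 and 32.5 in Pax5+/-, 46.5 and 45.9 in Pax5R31Q/- and 58.6 and 54.4 in Pax5-/- libraries. The summed myeloid markers were higher in replicate 1 of Pax5-/-, and Cox6a2 was higher in replicate 2. The part of these cell types in the Cox6a2 result was not tested.

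Cox6a2 lies on chromosome 7 (GRCm38.p6, chr7:128205435-128206366, minus strand) and overlaps Itgad, an integrin gene on the opposite strand. Itgad was at 1.81 and 3.55 TPM in Pax5-/- and at 0.326 to 1.08 TPM in the other libraries, below the level of Cox6a2 in every library. Whether the counting used strand is not stated, so reads of the overlap cannot be assigned with certainty. The neighbouring integrin gene Itgax was at 13.7 and 20.5 TPM in Pax5-/- and at up to 0.697 TPM in the other libraries.

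The 2 parts of the ATP synthase differed in their sums. The 5 members of the catalytic F1 part summed to 4491 and 3630 TPM in Pax5+/+ and to 4722 and 4302 TPM in Pax5-/- libraries. Of these 5 genes 0 were called, and all 5 log2 fold changes lay above 0, between 0.04 and 0.21. The 11 members of the membrane part Fo and the stalk summed to 4566 and 4167 TPM in Pax5+/+, 4303 and 4521 in Pax5+/-, 4444 and 5055 in Pax5R31Q/- and 3479 and 3682 in Pax5-/- libraries, with both Pax5-/- libraries below the 6 others. Of these 11 genes 9 lay below 0 and 2 were called lower, beside 57.4% and 19.7% of all genes. The called genes were Atp5mpl, a small membrane subunit, and Atp5j, which belongs to the stalk. The difference between the F1 and the Fo genes was not tested.

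Atp5mpl was at 236 and 232 TPM in Pax5+/+, 209 and 215 in Pax5+/-, 204 and 241 in Pax5R31Q/- and 123 and 177 in Pax5-/- libraries (log2 fold change -0.66, SE 0.17, limma adjusted p = 0.0221). Its call was lost without replicate 1 of Pax5-/-, with a limma adjusted p of 0.0585, and without either Pax5+/+ library. Atp5j was at 369 and 369 TPM in Pax5+/+ and 231 and 310 TPM in Pax5-/- libraries (log2 fold change -0.46, limma adjusted p = 0.0483), a call that was lost in 12 of 16 alternative settings and that held without replicate 2 of Pax5-/- as the only library left out. It overlaps Gabpa on the opposite strand, which encodes a factor known to act on many respiratory chain promoters and which was itself lower in Pax5-/- cells. The genes Atp5g1, Atp5g2 and Atp5g3 encode the same mature ring subunit from different precursors, and Atp5g3 made up 65.9% to 78.1% of their sum in the pro-B cell libraries and 64.3% and 71.6% in Pax5-/- cells. None of these 3 genes was called between Pax5-/- and Pax5+/+ cells. Against Pax5R31Q/- cells 5 of the 11 Fo and stalk genes were lower, beside 19.9% of all genes. Atp5g3 was among them (log2 fold change -0.56, limma adjusted p = 0.0199), and its call was lost without either Pax5R31Q/- library or replicate 1 of Pax5-/-. Also among them, Atp5j and Atp5mpl lost this call in 13 and 10 of 16 alternative settings, and Atp5k lost it in 4.

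Many short respiratory chain genes have processed copies elsewhere in the genome, and reads were counted only where they mapped to 1 place, so that the levels of such genes are uncertain. In replicate 1 and replicate 2 of Pax5-/- cells, Atp5l was at 91.5 and 25.4 TPM, Cox7c at 657 and 262 TPM, and Ndufb4c, a gene copy, at 30.6 and 121 TPM. The direction differed between these genes, and none was called between Pax5-/- and Pax5+/+ cells. Of the 88 members 44 had under 1000 bases of exon, and among all 1336 tested genes of this length 14.2% were lower and 11.8% higher in Pax5-/- cells.

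Pax5 occupied most respiratory chain promoters. Of the 88 members, 69, or 78.4%, had a Pax5 peak within 1000 bases of a transcription start site in Pax5+/+ Rag2-/- cells, compared with 66.9% of 13100 tested genes with an annotated start. In Pax5R31Q/- cells 74 members, or 84.1%, had such a peak, compared with 72.0%. These shares were not matched for level, and the median member had a mean of 227 TPM beside 22.4 TPM for the median gene tested. All 69 members with a peak in Pax5+/+ cells had an overlapping peak in Pax5R31Q/- cells, so that 0 peaks were unmet, whereas 344 of 8766 genes, or 3.92%, had an unmet promoter peak. Across the genome 62.5% of the 41983 Pax5+/+ peaks were not met by any of the 18821 Pax5R31Q/- peaks. There was 1 ChIP-seq library per genotype, so these shares carry no replicate error and were not tested. The Pax5+/+ library was Rag2-/- and the label of the Pax5R31Q/- library names no Rag2 mutation. Effects of the Pax5 allele and of Rag2 on the peaks therefore cannot be told apart.

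The peaks lay on the start sites. A start site fell inside the peak for 68 of 69 members in Pax5+/+ and for 73 of 74 members in Pax5R31Q/- cells. This was not counted over all genes. Of the 8766 tested genes with a Pax5+/+ peak within 1000 bases, 8279 had one within 200 bases, as did all 69 members. Where both libraries had a peak, the median width of the widest promoter peak was 492 bases in Pax5+/+ and 675 bases in Pax5R31Q/- cells, and 68 of 69 members, or 98.6%, had the wider peak in Pax5R31Q/- cells. Among all 8448 tested genes with both peaks 90.9% did, with median widths of 586 and 811 bases. When at least 50% of both peaks had to overlap, 3 members, Cox5b, Uqcrc2 and Uqcrh, had an unmet peak. That is 4.35% of the members with a Pax5+/+ promoter peak, compared with 15.9% of all tested genes with one. Ndufa1, Ndufa3, Ndufb11 and Sdha were among the members with a promoter peak in Pax5R31Q/- cells alone. There were 5 such members among the 74 with a Pax5R31Q/- promoter peak, compared with 978 of 9426 tested genes.

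**Figure D5:**
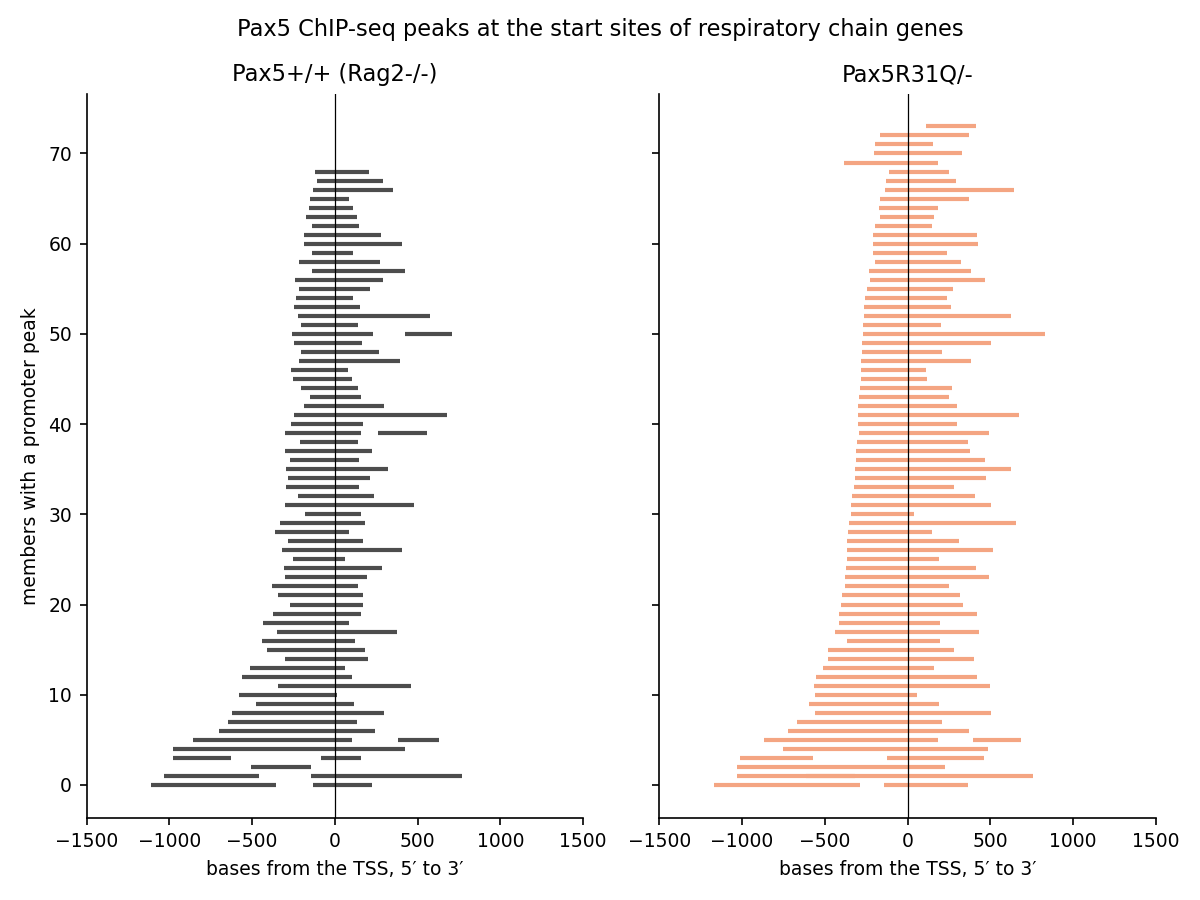
Extent of the promoter peaks of the members, in bases from the transcription start site nearest to each peak (horizontal axis, the start site at 0), with a numbered row for each member and a panel for each ChIP-seq library. Peaks are drawn for 69 members in Pax5+/+ and 74 members in Pax5R31Q/- cells, and most cover the start site in both panels.

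The lower members were found with and without promoter peaks. Of the 69 members with overlapping peaks in both libraries 14, or 20.3%, were lower in Pax5-/- cells, compared with 20.5% of all 8422 tested genes of this class. Of the 5 members with a peak in Pax5R31Q/- cells alone 1 was lower, compared with 15.5% of all such genes, and of the 14 without a peak 1 was lower, compared with 17.2%. The member without a peak that was lower was Ndufb10. Cox6a2 had no peak at its promoter, and the nearest peak lay 31452 bases from its start site in Pax5+/+ and 31471 bases in Pax5R31Q/- cells. In the 69 members with both peaks the log2 fold changes between Pax5R31Q/- and Pax5+/+ cells ranged from -0.40 to 0.51, with a median of 0.02.

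Promoter sequences from RefSeq (GRCm38.p6) were examined for 71 members, with 76 promoters in all. The other 17 members, Cox6a2 among them, were not searched. The 250 bases before the start site are shown for 4 of the members lower in Pax5-/- cells, each with a peak over its start site in both Pax5 libraries. They were picked because each holds a motif match to show, whereas the promoter read for Ndufa5 held none. They were taken 5′ to 3′ on the strand of the gene, Cox7a1 from chr7:30183921-30184170 (plus), Ndufaf3 from chr9:108567437-108567686 (minus), Ndufs8 from chr19:3912775-3913024 (minus) and Cox6a1 from chr5:115348959-115349208 (minus), and capitals mark matches to the motifs below on either strand.
Cox7a1: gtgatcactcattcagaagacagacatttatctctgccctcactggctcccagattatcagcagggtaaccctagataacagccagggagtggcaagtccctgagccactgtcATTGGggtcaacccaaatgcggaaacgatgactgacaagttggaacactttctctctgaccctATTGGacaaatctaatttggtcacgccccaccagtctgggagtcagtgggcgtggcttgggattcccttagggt
Ndufaf3: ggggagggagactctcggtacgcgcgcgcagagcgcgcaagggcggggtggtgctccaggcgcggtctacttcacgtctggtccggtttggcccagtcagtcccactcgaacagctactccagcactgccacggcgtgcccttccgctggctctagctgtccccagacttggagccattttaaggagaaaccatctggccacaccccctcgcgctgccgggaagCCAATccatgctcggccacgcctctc
Ndufs8: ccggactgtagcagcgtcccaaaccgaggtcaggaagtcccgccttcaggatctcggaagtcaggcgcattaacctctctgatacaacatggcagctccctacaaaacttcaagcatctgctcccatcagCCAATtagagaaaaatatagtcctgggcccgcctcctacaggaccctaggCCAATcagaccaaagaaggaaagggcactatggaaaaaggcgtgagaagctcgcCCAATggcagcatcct
Cox6a1: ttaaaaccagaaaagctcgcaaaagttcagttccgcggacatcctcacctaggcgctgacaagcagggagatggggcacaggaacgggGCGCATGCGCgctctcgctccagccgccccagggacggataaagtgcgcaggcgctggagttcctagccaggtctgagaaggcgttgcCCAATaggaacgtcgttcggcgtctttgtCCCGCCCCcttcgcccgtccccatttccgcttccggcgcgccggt

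The motifs were those of factors known from respiratory chain promoters and general promoter elements, matched exactly on both strands. The NRF1 core GCGCATGC was in 9 of 76 member promoters, or 11.8%, and in 4.31% of 12622 promoters of all tested genes. Its members were Ndufa6, Ndufa8, Ndufa11, Ndufaf4, Sdhb, Cox6a1, Atp5g2, Atp5k and Atp5l. In the Cox6a1 promoter the match is read on both strands, because the run GCGCATGCGC holds the core in each direction. The CCAAT box was in 43.4% of member promoters and 35.5% of all promoters. It was in 6 of the 16 promoters of members lower in Pax5-/- cells, beside the 35.5% of all promoters. These promoters leave out Atp5mpl and Uqcrq, which were not searched, and hold more than 1 for Ndufa5 and for Atp5j. All 4 printed promoters hold the box, but they were picked for holding a match. The Ndufs8 promoter holds it 3 times. The ETS core CCGGAAGT was in 3.95% and 5.92%, the SP1 site GGGGCGGG in 21.1% and 26.8%, the YY1 site AAGATGGC in 1.32% and 2.06%, the ERR site TCAAGGTCA in 1.32% and 0.246%, and TATAAA in 7.89% and 6.48%. The letters of no motif contain those of another on either strand. A match describes the letters of the window and not the binding of a factor.

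The genes around the respiratory chain were also examined. Of 17 genes for electron carriers and quinone synthesis, 1 was lower and 5 were higher in Pax5-/- than in Pax5+/+ cells, where 19.7% of all genes were lower and 16.2% higher, and these shares also apply to the lists that follow. Coq7, an enzyme of ubiquinone synthesis, was at 61.7 and 56.3 TPM in Pax5+/+, 41.3 and 40.3 in Pax5+/-, 30.5 and 31.7 in Pax5R31Q/- and 19.8 and 18.9 in Pax5-/- libraries. The genotypes did not overlap, and the log2 fold changes from Pax5+/+ were -0.52 in Pax5+/-, which did not pass (limma adjusted p = 0.268), -0.90 in Pax5R31Q/- (SE 0.11, limma adjusted p = 0.0067) and -1.56 in Pax5-/- cells (SE 0.11, limma adjusted p = 7.0e-05). The call in Pax5R31Q/- was lost without either Pax5R31Q/- library, with a limma adjusted p of up to 0.0856, and that in Pax5-/- cells held under all 16 alternative settings. Coq8a, a kinase-like protein of the same pathway, rose by 1.26 on the log2 scale in Pax5-/- cells, and Coq2, Coq3, Coq9 and Dhodh rose by 0.45 to 0.60, and each of these 4 lost its call in at least 1 fit with a library left out. The soluble carrier gene Cycs and Cyc1, the cytochrome of complex III, did not pass, with limma adjusted p values of 0.151 and 0.276.

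Of 39 assembly factors outside the naming rule, 5 were lower and 2 higher in Pax5-/- cells. The largest changes among the called genes were in Lyrm7, a chaperone of complex III, at -0.90, and Sdhaf2, which attaches the cofactor of Sdha, at -0.85 on the log2 scale. Of 18 genes of the citric acid cycle and pyruvate oxidation, 1 was lower and 3 higher, with Suclg2 at 0.63 and Suclg1 at 0.56, both subunits of succinyl-CoA ligase. In Pax5R31Q/- cells 0 genes of these 2 lists were called.

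Of 20 regulators of mitochondrial genes 5 were lower and 4 higher in Pax5-/- than in Pax5+/+ cells, beside the 19.7% and 16.2% of all genes. The coactivator Ppargc1a was at 3.28 and 4.57 TPM in Pax5+/+ and 0.635 and 0.956 TPM in Pax5-/- libraries (log2 fold change -1.45, limma adjusted p = 0.00116). Myc, a growth-promoting transcription factor, was at 113 and 182 TPM and at 379 and 382 TPM (log2 fold change 1.40, limma adjusted p = 0.00143). Nrf1, Gabpa and Gabpb1, whose products bind respiratory chain promoters, were lower by log2 fold changes of -0.55, -0.53 and -0.74, as was the mitochondrial DNA polymerase gene Polg. The calls for Ppargc1a, Myc and Polg held under all 16 alternative settings, and those for Nrf1, Gabpa and Gabpb1 were lost in 5, 8 and 2 of them, each without at least 1 of the Pax5+/+ libraries. Of 8 genes for the exchange of ATP and ADP, Slc25a4, the ADP/ATP carrier, was higher at 0.50 and Ucp2, an uncoupling-protein family member, was lower at 3216 and 3076 TPM in Pax5-/- compared with 7060 to 9813 TPM in the other libraries (log2 fold change -1.48, limma adjusted p = 0.00038). The 8 mitosis genes were all lower in Pax5-/- cells, with a summed level of 340 and 369 TPM compared with 1130 to 2081 TPM, and their part in the lower respiratory chain members was not tested.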

How the data were processed

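The authors removed ribosomal reads from 50-nt RNA-seq reads of poly(A)-selected RNA, aligned the rest with STAR 2.4.2 (version from the submitters' processing notes) to the mouse genome GRCm38/mm10, assigned reads with a single mapping position to RefSeq genes (featureCounts) and deposited TPM, which are scaled per length and to an equal total in each library. For ChIP-seq with an antibody to the Pax5 paired domain, they aligned reads with Bowtie2 2.3.5.1 and called MACS peaks per library with a Rag2-/- input as control. The deposited peak lists hold positions alone. Strand handling is not given in the sources used here.

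Genes with at least 1 TPM in at least 1 library were fitted on log2(TPM + 1) with limma 3.58.1 (R 4.3.3, trended variance) over 8 libraries in 4 genotypes, and p-values were adjusted over all 13436 genes by the Benjamini-Hochberg method. A member was called at an adjusted p under 0.05. Fold changes on this scale understate those of low genes. Permuting 2 against 2 libraries exactly gives no p under 0.333, and the calls therefore use the spread limma pools over genes. Whole reads, within at most 0.01 of a whole number, were recovered from the TPM steps for 18206 of 18206 genes above 0 in at least 2 libraries. As a control, the values of the first 2000 listed genes above 0 in at least 3 libraries were shifted at random by up to 1 in 1000, and 81 then still gave whole reads. These reads gave the depths and a limma-voom alternative. Peaks were joined to RefSeq start sites within 1000 bases, and any shared base counted as an overlap. Of the files' 25579 symbols 24780 matched RefSeq.

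Named in the text were the sums and counts of each complex, in each comparison with Pax5+/+ the 5 called members with the largest change in each direction, all complex II subunits, the complex IV isoforms and their partners, the most and least abundant members, and from the other lists the 2 called genes with the largest change. Cycs, Cyc1, Nrf1, Gabpa, Gabpb1, Polg, Itgad, Itgax, Atp5l, Cox7c, Uqcrb, Ndufb4c, the remaining called members and the single markers were named after their values were seen. The members and lists were chosen with earlier results of these data known. Alternatives were another pseudocount, other filters on low TPM, median-ratio and quantile scaling, a fit of the compared genotypes alone, a fit without trend, limma-voom, each library left out, and other peak windows and overlaps. Mitochondrially encoded genes were not analysed here. Values of single genes that are withheld are not reported here.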

Additional observations from a re-analysis of the deposited data

How the results depend on the processing

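All calls for single members, and in the comparisons with Pax5+/+ those for the genes of the lists around the respiratory chain, kept their direction under the 16 alternatives. The medians over the members, which carry no test, changed sign in the comparisons among pro-B cells, as did the members' median minus that of all genes against Pax5-/- cells. Members lower in Pax5-/- than in Pax5+/+ cells numbered 8 with median-ratio scaling, 8 with quantile normalization and 1 with these genotypes alone in the fit, and 7 to 22 with 1 library left out. Members higher numbered 2 with either scaling and 2 with limma-voom, and 1 to 5 with 1 library left out. Their median log2 fold change was -0.058 with median-ratio scaling, -0.037 with quantile normalization, -0.061 with limma-voom, and -0.21 to -0.12 with 1 library left out. Against Pax5R31Q/- cells, lower members numbered 8 without a filter, 7 with median-ratio scaling and 10 with quantile normalization. They numbered 2 with these genotypes alone, 8 without trend and 8 with limma-voom. In the same order, 11.3%, 18.4%, 18.7%, 11.9%, 18.7% and 19.5% of all genes were lower. Leaving out 1 library moved the number of lower members in both directions, as given above. Higher members numbered 2, 5 and 2 with median-ratio scaling, quantile normalization and limma-voom, and 1 to 7 with 1 library left out. The median was -0.055, -0.078 and -0.051 under the same 3, and -0.28 to -0.12 with 1 library left out. The median of all genes in this comparison moved from -0.13 to between -0.013 and -0.011 under both scalings and limma-voom, and the members' median minus that of all genes was -0.055 as reported and between -0.067 and -0.038 under the 3, but -0.17 and 0.020 without replicate 1 or 2 of Pax5R31Q/- and -0.12 and 0.0093 without replicate 1 or 2 of Pax5-/-. Against Pax5+/+ this difference was -0.042 as reported, -0.13 without a filter, -0.10 without replicate 2 of Pax5+/+, and -0.14 and 0.0085 without replicate 1 or 2 of Pax5-/-. Between Pax5R31Q/- and Pax5+/+ cells 0 to 1 members were lower, 0 to 1 higher and the median was -0.056 to 0.074 with 1 library left out. Between Pax5+/- and Pax5+/+ cells the median was -0.073 to 0.039. Between Pax5R31Q/- and Pax5+/- cells it was -0.027 to 0.078, and 1 member was higher with these genotypes alone. The fits of the compared genotypes alone hold 4 libraries. The cause of the other moves was not tested. The counts of members with promoter peaks were the same within 200 and 2500 bases.

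No paired analysis was possible because the labels carry no replicate numbers, and the numbers used here follow accession order. Leaving out a library leaves 1 in its genotype, which is then assumed to vary like the others. The 2 libraries per genotype limit the small differences that can be called, and 27 to 30 reads for Cox6a2 in Pax5R31Q/- cells limit its ratio there.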
